A study of Mus musculus with 12 samples.

Results

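Clec12a was followed across 4 sorted stages of the mouse basophil lineage as 1 row of a count table that lists 32227 genes, of which 15083 had enough counts to be tested. It was taken because its protein, CLEC12A, was one of the surface markers on which the cells had been sorted, and no measured value of the gene entered that choice. All cells came from C57BL/6J WT mice, none carried a mutation, and no treatment was given. No age of the animals was given in the sources used here. From the bone marrow (BM), BaPs were CD200R3+ cKit- cells that were CLEC12A-high and CD34+, CD34- pre-basophils were CLEC12A-high and CD9-low, and BM mature basophils were CD34-, CLEC12A-low and CD9-high. Spleen mature basophils were CLEC12A-low and CD9-high cells of the spleen. Each group had 3 libraries, each made from a pool of several animals, so the spread between replicates was the spread between pools of sorted cells.

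CLEC12A is a C-type lectin-like receptor of myeloid cells. It carries an immunoreceptor tyrosine-based inhibitory motif (ITIM) in its cytoplasmic tail, through which such receptors recruit the tyrosine phosphatases encoded by Ptpn6 and Ptpn11 and dampen activation by kinase-coupled receptors. It is known from neutrophils, monocytes and dendritic cells, where it limits responses to uric acid crystals released by dying cells. Basophils, the rarest of the granulocytes, bind IgE through its high-affinity receptor and store proteases in their granules.

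In GENCODE M21 on GRCm38, Clec12a (ENSMUSG00000053063.11) is a protein-coding gene on the forward strand of chromosome 6, from 129342691 to 129365303, with 4 annotated transcripts. The transcript ENSMUST00000065289.5 has 6 exons and 2502 exonic bases, of which 801 are coding. The RefSeq start of the gene is at 129350244, which lies inside the first exon of that transcript, upstream of its coding part. A window from 250 bases before to 50 bases after this start was searched on both strands for letters that myeloid transcription factors are known to bind. The C/EBP palindrome, written TTGCGCAA, occurred 1 time in the window, 140 bases before the start, and in 0.183% of 32851 mouse promoter windows of the same length. The PU.1 core, written GAGGAAG, occurred 1 time, 61 bases before the start, and in 13.6% of windows. Both matches lie after the GENCODE start of ENSMUST00000065289.5 (129349964), inside its first exon. These stretches of 30 bases are shown because they hold the rarest of the matches and the longer of the other matched motifs, with the matched letters in capitals. The matches do not overlap, and the sequences are those of RefSeq on GRCm38.p6, forward strand, at chr6:129350093-129350122 and chr6:129350172-129350201.
C/EBP palindrome: gtaggagcaaaTTGCGCAActcgtatgaag
PU.1 core: ggaagaaatatGAGGAAGaaaagtgttcct
The RUNX core TGTGGT also occurred 1 time (16.8% of windows), and the GATA core AGATAAG did not occur in this window (3.04% of windows). A match describes the letters only, and binding was not measured.

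Clec12a was highest in the libraries sorted as CLEC12A-high and fell in both groups of mature basophils. In BaP replicates 1, 2 and 3 it had 1350, 1387 and 1329 counts, which corresponded to 321, 325 and 128 CPM (counts scaled to a common library total, adjusted by TMM, edgeR's trimmed mean of M values). In pre-basophils it had 894, 874 and 1522 counts, or 249, 212 and 242 CPM. In BM mature basophils it had 123, 148 and 164 counts, or 38.9, 36.9 and 30.5 CPM, and in spleen mature basophils 77, 92 and 82 counts, or 12.3, 15.1 and 10.8 CPM. The BaP and pre-basophil values overlapped, because BaP replicate 3 lay below every pre-basophil library and BaP replicates 1 and 2 above. Every CLEC12A-high library lay above every CLEC12A-low library, as for 16.7% of genes tested, and every BM mature library above every spleen mature library, as for 17.1%. The mean level was 258 ± 113 CPM for BaPs and 234 ± 19.7 CPM for pre-basophils, and it was 35.4 ± 4.37 CPM for mature basophils of the BM and 12.7 ± 2.17 CPM for those of the spleen (SD, n = 3 each). The lowest library by CPM, spleen mature replicate 3, still held 82 counts and no library fewer than 77, so the gene was measured above the 3 counts that a count of 0 allows in all 12 libraries.

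**Figure D1:**
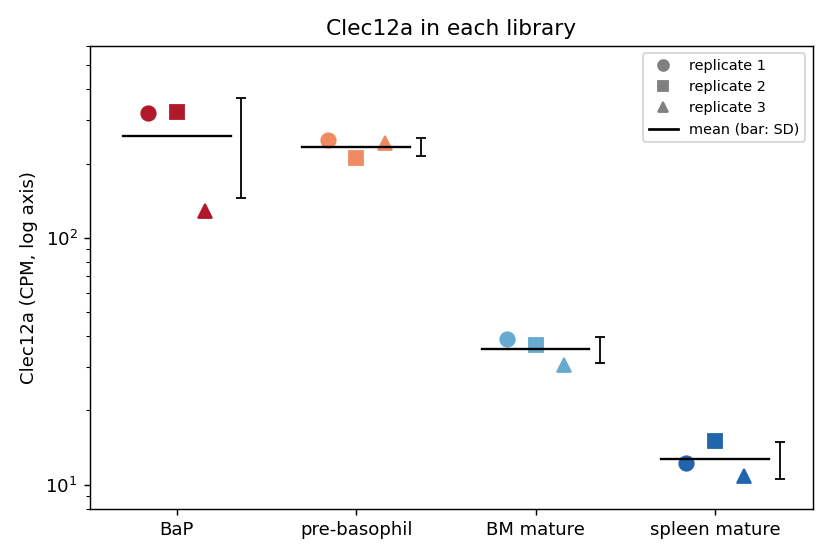
Clec12a in CPM on a log axis (vertical) for the 4 groups (horizontal). Each point is a library, its shape the replicate number, the line is the group mean and the bar beside it the SD. BaP replicate 3 sits at 128 CPM against 321 and 325 CPM in the other BaP libraries, and the spleen points at 10.8 to 15.1 CPM lie below all others.

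Library totals ran from 3596108 to 8151030 counts. BaP replicate 3 stood apart from the other 11 libraries, with 26743 genes detected against 21911 to 24704 and 3.53% mitochondrial counts against 0.9998% to 1.82%. The 6 natural killer cell markers summed to 568 CPM in it against 3.33 to 52.7 CPM elsewhere, the 9 T cell markers to 330 CPM against 14.5 to 41.8 CPM, and the 5 erythroid markers to 1507 CPM against 8.08 to 159 CPM. Its Clec12a level was 0.396 times the mean of BaP replicates 1 and 2. For the 7 basophil markers (Mcpt8, Prss34, Cd200r3, Fcer1a, Ms4a2, Gata2 and Cpa3) the same ratio was 0.362 to 0.522, with a median of 0.434. Thus Clec12a was lower in this library by about as much as the genes that mark basophils. The part of other cells in that value was not tested. Values with and without this library are given for each comparison of Clec12a between BaPs and another group.

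BaPs and pre-basophils shared the CLEC12A-high gate and differed in CD34, which puts the question whether the transcript differed between them. Over all libraries no difference was called: the log2 difference, BaP minus pre-basophil, was 0.14 (SE 0.26, 95% interval -0.42 to 0.69, edgeR adjusted p 0.818), where 7.09% of genes tested were called. Without BaP replicate 3 the mean of the remaining BaP libraries was 323 CPM, and Clec12a was called higher in BaPs by 0.47 on the log2 scale (SE 0.12, edgeR adjusted p 0.0164), beside 12.4% of genes. Without BaP replicate 1 or 2 the log2 difference was -0.06 and -0.07. The order of BaPs and pre-basophils therefore rested on 1 library.

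Pre-basophils and BM mature basophils came from 1 tissue and differed in the sorted CLEC12A and CD9 proteins. The transcript was 6.63-fold higher in pre-basophils (log2 2.73, SE 0.29, 95% interval 2.12 to 3.34, edgeR adjusted p 1.62e-05). In this comparison 27.2% of genes were called and 16.3% were called higher in pre-basophils, and Clec12a ranked 202 of 15083 by size of the increase. Because the cells were separated on the CLEC12A protein, this difference describes how the transcript followed the gate and is no independent test of the stages.

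BM mature basophils were compared with spleen mature basophils, which carried the same CLEC12A-low CD9-high phenotype in a different tissue. Clec12a was 2.78-fold higher in the BM (log2 1.47, SE 0.30, 95% interval 0.83 to 2.12, edgeR adjusted p 0.0124), with 7.83% of genes called in either direction and 4.67% called higher in the BM. It ranked 210 of 15083 by size. The call was lost without BM mature replicate 1 (log2 1.41, edgeR adjusted p 0.0579) or without spleen mature replicate 3 (log2 1.36, edgeR adjusted p 0.0711), and the difference stayed between 1.36 and 1.61 whichever library was left out. It was 1.47 with a smaller SE of 0.14 without BaP replicate 3 (edgeR adjusted p 3.50e-06, beside 18.0% of genes called). From the libraries of the compared groups alone it was 1.48 (SE 0.17, edgeR adjusted p 3.53e-05, with 2340 genes called). The spleen mean was 0.359 times that of the BM. The 7 basophil markers also had lower levels in the spleen, at 0.182 to 0.820 times the BM mean with a median of 0.581, and the 6 B cell markers summed to 98.7 to 157 CPM in spleen libraries against 27.5 to 31.4 CPM in BM mature libraries. Their part in the difference was not tested, and in bulk samples fewer expressing cells and less transcript per cell cannot be told apart.

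Over the whole range Clec12a was 20.2-fold higher in BaPs than in spleen mature basophils (log2 4.34, SE 0.31, edgeR adjusted p 1.24e-07, with 54.4% of genes called). It was 18.4-fold higher in pre-basophils than in spleen mature basophils (log2 4.20, SE 0.31, edgeR adjusted p 3.29e-07, with 45.7% of genes called). BaPs exceeded BM mature basophils by 2.86 on the log2 scale (SE 0.29, edgeR adjusted p 3.43e-06, with 45.0% of genes called). Without BaP replicate 3 the log2 differences of BaPs from spleen and BM mature basophils were 4.68 and 3.21. The 6 CLEC12A-high libraries against the 6 CLEC12A-low libraries gave 11.6-fold (log2 3.53, SE 0.21, edgeR adjusted p 1.31e-08, with 57.2% of genes called), and 3.71 on the log2 scale without BaP replicate 3. A test over the 4 groups together gave an edgeR adjusted p of 1.41e-07, with 57.8% of genes called. All of these comparisons crossed the gate on the CLEC12A protein. They describe how the transcript followed the sort and are no independent test of the stages.

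The sizes of neighbouring steps were also set against each other. The step from pre-basophil to BM mature exceeded that from BM mature to spleen mature by 1.25 on the log2 scale (SE 0.50, 95% interval 0.17 to 2.34), which had an unadjusted p of 0.0263 in edgeR and was not called after adjustment (edgeR adjusted p 0.167, with 6.29% of genes called). Without BaP replicate 3 this difference was 1.26 with an SE of 0.23 and was called (edgeR adjusted p 0.00133). The step from BaP to pre-basophil was smaller than that from pre-basophil to BM mature by 2.59 (SE 0.44, edgeR adjusted p 0.00472, with 3.15% of genes called), and by 2.26 without BaP replicate 3. Only the step from pre-basophil to BM mature crossed the gate on the CLEC12A protein. The sort therefore favoured a larger step there, and these step differences are no independent test of the stages. A fall at both the step to BM mature and the step to spleen was called for 216 genes (1.43% of those tested), Clec12a among them. Of these, 99 (0.656%) fell by at least 1 on the log2 scale at both steps, and 92 of the 99 had at least 10 CPM in pre-basophils. Clec12a ranked 39 among the 92 by the size of the fall from BM to spleen.

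**Figure D2:**
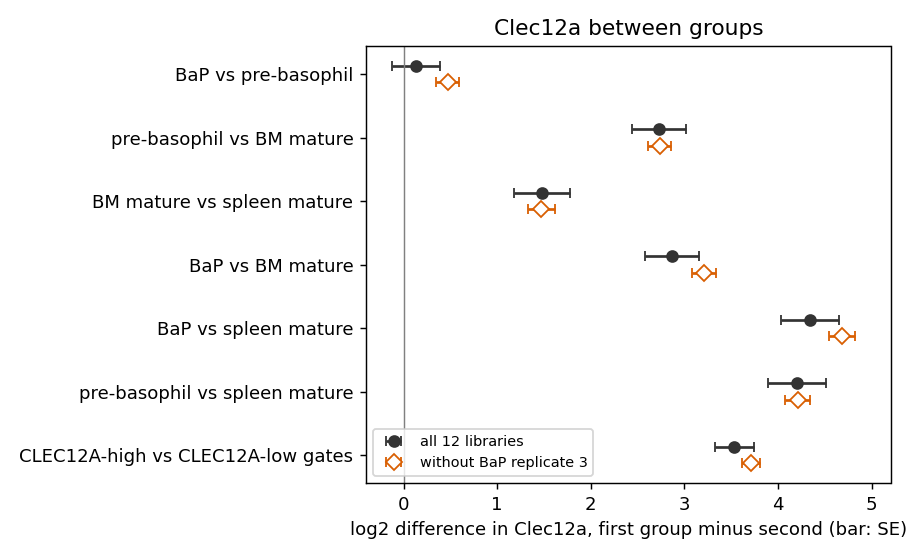
Log2 difference in Clec12a (horizontal, first group minus second, with SE) for 7 comparisons (vertical), from all 12 libraries (filled) and without BaP replicate 3 (open). The value of BaPs against pre-basophils moves from 0.14 to 0.47, and pre-basophils against BM mature stays at 2.73 and 2.74.

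Except for BaPs, whose gate names no CD9, the sort used CLEC12A together with CD9, a tetraspanin of the cell surface, in opposite directions. Its transcript, Cd9, had 243, 238 and 187 CPM in BaPs and 442, 398 and 450 CPM in pre-basophils. It had 628, 536 and 616 CPM in mature basophils of the BM and 503, 592 and 472 CPM in those of the spleen. Cd9 thus ran from the lowest values in BaPs to overlapping values in both mature groups, whereas Clec12a separated the mature groups and not the CLEC12A-high groups. The ratio of Clec12a counts to Cd9 counts, which does not depend on scaling between libraries, was 1.32, 1.37 and 0.685 in BaPs and 0.563, 0.532 and 0.538 in pre-basophils. It was 0.0620, 0.0687 and 0.0496 in mature basophils of the BM and 0.0244, 0.0255 and 0.0230 in those of the spleen. No 2 groups overlapped in this ratio, and BaP replicate 3 stayed above every pre-basophil library. The share of other genes whose ratio to Cd9 separates the groups in this way was not computed. Between BaPs and pre-basophils Clec12a itself overlapped and Cd9 did not, so the ratio gives no separate result for Clec12a there. The mean ratios were 1.12 ± 0.381, 0.544 ± 0.0164, 0.0601 ± 0.00972 and 0.0243 ± 0.00127 in the order of the groups (SD, n = 3 each). The ratio was 20.1-fold higher in the 6 CLEC12A-high libraries (log2 4.33, with a two-sided exact permutation p of 0.00216, the smallest that 6 against 6 libraries allow), and without BaP replicate 3 the log2 difference was 4.36 (exact permutation p 0.00433). CLEC12A had been gated on in all groups, and CD9 in the opposite direction in all but BaPs. The sort itself therefore favoured this separation and the test is not independent of it. The permutation also pooled different groups within each gate and did not use the pairing of the BM libraries.

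**Figure D3:**
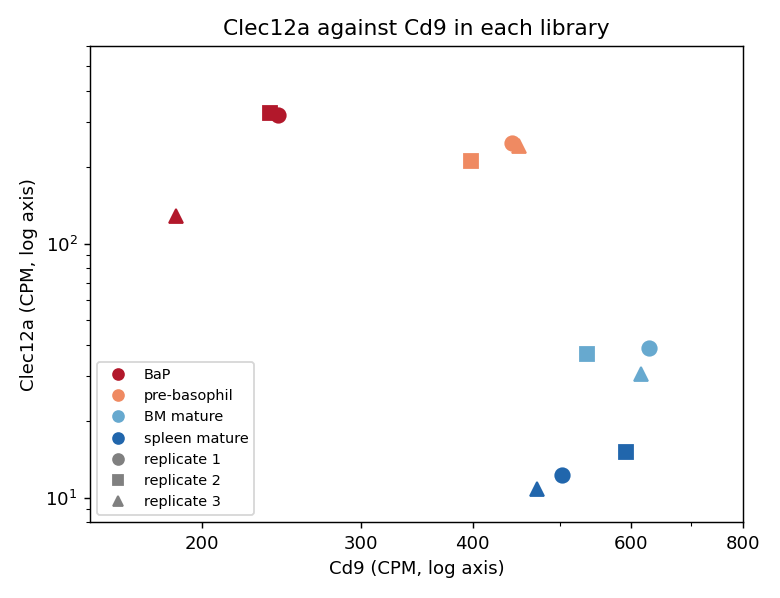
Clec12a (vertical) against Cd9 (horizontal), both in CPM on log axes, with 1 point per library coloured by group and shaped by replicate number. BaP replicate 3 lies below and left of the other BaP libraries, at 128 CPM Clec12a and 187 CPM Cd9, and the spleen points lie below the BM mature points at overlapping Cd9 levels.

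The transcripts of the other sort markers were set beside Clec12a. CD34 separated BaPs from pre-basophils, and CD9 helped to separate pre-basophils from BM mature basophils. The calls of Cd34 and Cd9 at those steps therefore follow the gates and are no independent test. Across the 12 libraries, which share groups and, in BaP replicate 3, a mixture of markers, Pearson's r with Clec12a on log2 CPM was 0.83 for Fcer1a (the alpha chain of the IgE receptor), 0.69 for Kit (the stem cell factor receptor), 0.63 for Cd34, -0.32 for Cd200r3, -0.65 for Cd9 and -0.79 for Itga2 (the integrin chain CD49b). Between BaPs and pre-basophils, 5 of these 6 genes were called, beside 7.09% of all genes: Cd34 and Kit were higher in BaPs by 1.35 and 2.76 on the log2 scale, and Cd9 and Itga2 were lower by 0.95 and 0.86 (edgeR adjusted p 0.00447, 0.00747, 0.00107 and 0.0316), as was Cd200r3, with 471 against 940 CPM (edgeR adjusted p 0.00748). The call of Kit was lost without pre-basophil replicate 3 (edgeR adjusted p 0.0531), its value was 1.88 without BaP replicate 3, and that of Itga2 was lost without BaP replicate 1 or 2 or any 1 pre-basophil library (up to 0.130). From pre-basophil to BM mature 4 of the 6 were called, beside 27.2% of genes. Fcer1a was higher in pre-basophils by 0.80 and Kit by 2.33 (edgeR adjusted p 0.0294 and 0.047), and Cd9 was lower by 0.46 and Itga2 by 1.03 (edgeR adjusted p 0.017 and 0.00277). The call of Itga2 held without any 1 library, whereas that of Fcer1a was lost without any 1 pre-basophil or BM mature library, that of Cd9 without 4 libraries and that of Kit without 7. Fcer1a thus shared the direction of Clec12a at this step, and its mean levels in the 4 groups were 1078, 1566, 898 and 522 CPM. Between BM and spleen mature basophils none of the 6 was called by edgeR or limma-voom, where 7.83% of genes were, 2 (Fcer1a and Cd200r3) had an unadjusted p under 0.05 and DESeq2 called 1 (Fcer1a), whereas edgeR called Fcer1a and Cd200r3 higher in the BM without BaP replicate 3, beside 18.0% of genes.

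Because neutrophils are known to express CLEC12A, their 9 markers were set beside it. Their sum was 1887 to 2288 CPM in BaPs and 904 to 2125 CPM in pre-basophils, against 80.6 to 114 CPM in mature basophils of the BM and 56.4 to 64.2 CPM in those of the spleen. Mpo alone held 1783 of the 1887 CPM in BaP replicate 1 and 559 of the 2288 CPM in BaP replicate 3. All 9 had a higher mean over the CLEC12A-high libraries than over the CLEC12A-low ones, as Clec12a did. Among all 15083 genes tested, the fitted log2 difference between these gates was above 0 for 7543. Within the groups the markers differed. Mpo, the myeloperoxidase of early myeloid granules, had 1783, 1395 and 559 CPM in BaP replicates 1, 2 and 3 and 620, 439 and 456 CPM in those of pre-basophils, where Clec12a was likewise lowest in BaP replicate 3 and in pre-basophil replicate 2. Elane, the gene of neutrophil elastase, had 10.2, 12.7 and 8.77 CPM in BaPs, in the same order as Clec12a. In pre-basophils it had 5.01, 3.15 and 2.54 CPM, which was not the order of Clec12a. The other 7 markers were highest in replicate 3 of both groups, among them S100a9, a calcium-binding protein abundant in neutrophils, with 44.5, 226 and 602 CPM in BaPs and 117, 278 and 606 CPM in pre-basophils. The part of neutrophil-lineage cells in the Clec12a levels was not tested. The 8 monocyte or macrophage markers summed to 31.6, 38.9 and 302 CPM in BaP replicates 1, 2 and 3, 75.4 to 103 CPM in pre-basophils and 201 to 245 CPM in the mature groups. The chemokine receptor gene Ccr2 alone had 170 to 214 CPM of the latter. Beside the 7543 of 15083 genes given above, 4 of the 8 (Csf1r, Ly6c2, Fcgr1 and Cd14) had a higher mean over the CLEC12A-high libraries, for Ly6c2 with 177 CPM in BaP replicate 3 and at most 13.2 CPM elsewhere. The 7 dendritic cell markers summed to at most 21.5 CPM in any library, in BaP replicate 3.

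Per length of its merged exons (5528 bases), Clec12a had a mean level of 46.7 CPM per kb for BaPs, 42.3 for pre-basophils, 6.41 for mature basophils of the BM and 2.30 for those of the spleen. On this scale it exceeded 92.1%, 91.4%, 65.0% and 39.8% of the 14635 genes with a matched length. On this length Clec12a moved from high among all genes in the CLEC12A-high groups to below the median gene (3.46 CPM per kb) in the spleen. The merged exons include those of transcripts with retained introns. On the 2502 exonic bases of ENSMUST00000065289.5 its level per kb would be higher, so its place against the median gene and in the ranks below depends on the length used. Among 14 tested C-type lectin and lectin-like genes it ranked 3, 3, 5 and 6 per length, behind Cd69 and Clec2d in all 4 groups.

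The genes whose levels followed Clec12a most closely were found by Pearson's r over the log2 CPM of the 12 libraries, among 8413 genes with a mean of at least 10 CPM. The libraries share their groups, so such values are high for many genes: r exceeded 0.9 for 1130 genes (13.4%). The 6 highest were Mns1 (0.997), which encodes a structural protein of cilia and sperm tails, Ywhae (0.995), a phosphoserine-binding adaptor, Ctsg (0.995), the granule protease cathepsin G, the cell cycle kinase Cdk2 (0.995), the processed pseudogene Gm6722 (0.994) and the basophil protease Mcpt8 (0.993). Mns1 had mean levels of 197 ± 79.5 CPM (BaP), 215 ± 8.21 CPM (pre-basophil), 38.3 ± 6.04 CPM (BM mature) and 14.8 ± 2.16 CPM (spleen mature; SD, n = 3 each). Those are close to the Clec12a levels in every group, and BaP replicate 3 was likewise the lowest BaP library, with 106 CPM. Mcpt8 kept the same order of the mature groups at far higher levels, with means of 11828 CPM for pre-basophils, 1722 CPM for the BM mature group and 650 CPM for the spleen (libraries at 10831 to 12375, 1618 to 1819 and 551 to 753 CPM). Ywhae ran over a narrow range, from 228 CPM in pre-basophils to 88.1 CPM in spleen mature basophils.

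The 4 most opposite genes were Sbf1 (-0.989), Bicral (-0.987), which encodes a chromatin remodelling subunit, the pseudogene Gm11346 (-0.986) and Slfn2 (-0.985), a gene of the Schlafen family. Slfn2 had 20.3 ± 8.02 CPM (BaP), 24.6 ± 8.04 CPM (pre-basophil), 83.9 ± 3.21 CPM (BM mature) and 189 ± 11.9 CPM (spleen mature; SD, n = 3 each), given as a description with no test. Which genes ranked first depended on the measure. Without BaP replicate 3, Mns1 was still first and was the only one of the 6 left, and by Spearman's rho none of the 6 or the 4 remained.

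**Figure D4:**
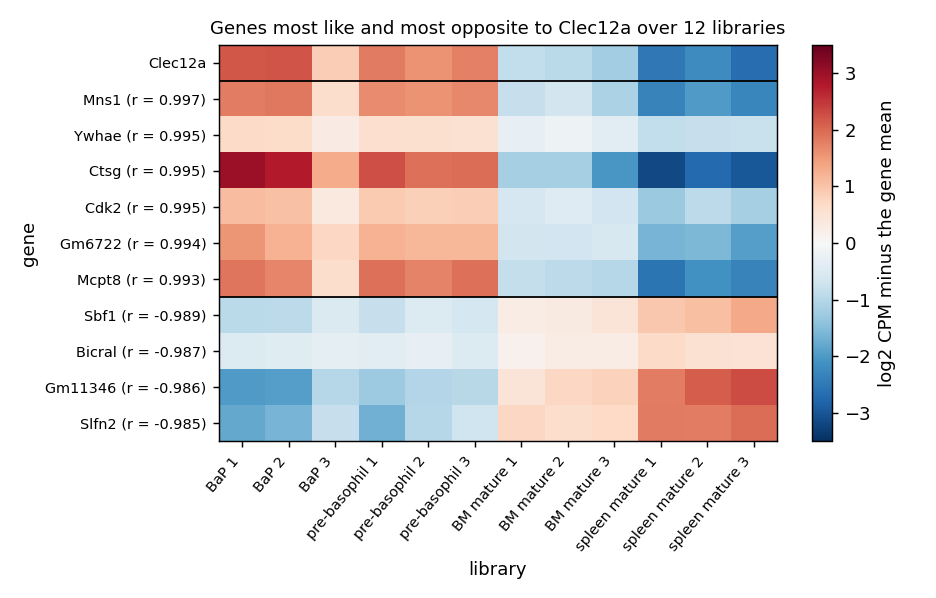
Log2 CPM minus the mean of each gene over the 12 libraries (colour) for Clec12a, the 6 genes most like it and the 4 most opposite to it (rows, with Pearson's r), by library (columns). Clec12a, Mns1, Ctsg and Mcpt8 run from red in BaPs and pre-basophils to blue in the spleen, with a paler BaP replicate 3, and Ywhae keeps the order over a narrower range.

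Other C-type lectin and lectin-like receptors sense pathogens, dying cells or ligands on neighbouring cells. Of 32 listed genes other than Clec12a, 13 were tested. At the step from pre-basophil to BM mature, 3 were called higher in pre-basophils (Clec4e, Clec4d and Clec11a) and 2 lower (Clec2d and Clec2i), beside 27.2% of all genes, with a median log2 difference of -0.44 against -0.00 over all genes tested. Clec2d, a ligand of natural killer cell receptors, was lower in pre-basophils by 1.20 (edgeR adjusted p 0.000467), with 103 against 237 CPM, and Clec2i by 0.94 (edgeR adjusted p 0.000265). These 2 calls held without any 1 library. Clec4e, which encodes the activating receptor Mincle, had mean levels of 76.1, 104, 58.1 and 11.3 CPM in the order of the 4 groups. Its higher level in pre-basophils than in BM mature basophils (log2 0.85, edgeR adjusted p 0.0461) was lost without any 1 spleen mature library, and also without pre-basophil replicate 1 or 3 or without BM mature replicate 2 or 3 (edgeR adjusted p up to 0.175). The calls of Clec4d (log2 1.14) and Clec11a were also lost without 3 and 4 of the libraries. Clec11a had the largest fitted difference of the list (log2 3.83, edgeR adjusted p 0.0392), from 8, 4 and 8 counts in pre-basophils and 1, 0 and 0 counts in BM mature basophils.

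Between BM and spleen mature basophils 4 of the 13 lectin genes were called higher in the BM (Clec4e, Cd69, Olr1 and Clec4d) and 1 lower (Clec2i), beside 7.83% of all genes, with a median of 0.19. Clec4e was higher by 2.34 (SE 0.32, edgeR adjusted p 0.0022), more than Clec12a, and Cd69, an early activation receptor, by 1.34 (SE 0.20, edgeR adjusted p 0.00274), with 3605 against 1420 CPM. Both calls held without any 1 library. Olr1, a scavenger receptor gene, was higher by 2.19 (edgeR adjusted p 0.0119, and 0.0608 without BM mature replicate 1), and the calls of Clec4d and Clec2i were each lost without any of 8 libraries. Between BaPs and pre-basophils Cd69 was lower in BaPs by 0.95 (edgeR adjusted p 0.0116, and 0.053 without pre-basophil replicate 2). Klrd1, a natural killer cell receptor gene, was called higher in BaPs and had a log2 difference of 0.01 without BaP replicate 3 (edgeR adjusted p 0.994). Without that library Clec11a was called higher in BaPs than in pre-basophils and Cd69, Clec2d and Klrk1 lower, beside 12.4% of genes. At the step from pre-basophil to BM mature, 3 and 5 of the 13 were then called higher and lower in pre-basophils, beside 35.7% of genes. Between BM and spleen mature basophils 4 were then called higher in the BM and 3 lower, beside 18.0% of genes.

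Of 25 other receptors with ITIMs or related tyrosine motifs (Cd244a among the latter), 22 were tested. At the step from pre-basophil to BM mature 4 were called higher in pre-basophils (Lair1, Ceacam1, Pilra and Cd72) and 4 lower (Lilrb4a, Pirb, Siglecf and Cd244a), beside 27.2% of all genes, with a median of -0.06. Lair1, a collagen receptor, had 83.4, 77.6, 20.8 and 14.0 CPM in the 4 groups and was higher in pre-basophils by 1.89 (SE 0.26, edgeR adjusted p 0.000134). It was thus the ITIM receptor with the largest increase at this step after Clec12a. Pirb, which binds MHC class I, was lower by 1.81 (edgeR adjusted p 0.0012) and the sialic acid receptor gene Siglecf by 1.21 (edgeR adjusted p 5.73e-05). Lilrb4a, the most abundant of the list, rose from 447 CPM (BaP) to 1245 CPM (pre-basophil) and 2848 CPM (BM mature) (log2 differences, earlier minus later stage, of -1.48 and -1.19, edgeR adjusted p 3.07e-05 and 1.33e-05). Cd244a was lower in BaPs than in pre-basophils by 0.89 and in pre-basophils than in BM mature basophils by 0.70 (edgeR adjusted p 0.000744 and 0.000491). The calls of Lair1, Pirb, Siglecf, Lilrb4a, Cd244a and Ceacam1 at this step held without any 1 library, and those of Pilra and Cd72 did not. Pecam1 and Fcgr2b, also among the 4 most abundant, were not called in any of the 3 neighbouring comparisons.

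Between BaPs and pre-basophils Lilrb4a and Cd244a were the only tested receptors of this list called, beside 7.09% of all genes. Without BaP replicate 3, Lair1 was called higher in BaPs at this step and Cd244a, Lilrb4a and Pirb lower, beside 12.4% of genes. Between BM and spleen mature basophils 2 of the 22 were called higher in the BM (Lilrb4a and Ceacam1) and 2 lower (Siglecg and Cd22), beside 7.83% of genes. Each of these 4 calls was lost without 4 or more of the libraries in turn. Cd22 and Siglecg are genes of B cells, whose markers were higher in the spleen libraries as given above. Without BaP replicate 3, 5 and 5 of the 22 were called at each of the steps from pre-basophils to BM mature basophils and from BM to spleen, beside 35.7% and 18.0% of genes.

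A further list held signalling genes around ITIM receptors, namely phosphatases, kinases and adaptors. It includes genes of the activating signalling that such receptors dampen, Syk, Btk, Plcg2 and Vav1 among them. Of 24 listed, 23 were tested. None was called higher in pre-basophils than in BM mature basophils by edgeR, DESeq2 or limma-voom, and 0 had an unadjusted p under 0.05 in that direction, whereas 4 were called lower, namely the kinase genes Syk, Btk, Csk and Lyn, beside 27.2% of genes called in either direction and with a median of -0.16. Syk was lower by 0.73, Btk by 0.67 and Csk by 0.52 (edgeR adjusted p 0.00178, 0.000588 and 0.00204) whichever library was left out. Lyn, lower by 0.44 (edgeR adjusted p 0.0337), lost its call when BM mature replicate 1 or 3 or pre-basophil replicate 2 or 3 was left out (up to 0.115). Ptpn6, the phosphatase recruited by ITIMs, had 64.9, 78.5, 80.2 and 131 CPM in the 4 groups. It was lower in BM than in spleen mature basophils by 0.71 (SE 0.10, edgeR adjusted p 0.00292), at the step where Clec12a was higher in the BM, and Plcg2 was called lower by 0.55 as well (edgeR adjusted p 0.0334), a call lost without any of 7 libraries (up to 0.117). Between BaPs and pre-basophils Btk and Csk were lower in BaPs (0.65 and 0.46, edgeR adjusted p 0.00454 and 0.0192), and Csk was not called without pre-basophil replicate 2 or 3 (up to 0.095). Lck, a T cell kinase gene, was called higher in BaPs with a log2 difference of 3.97, which was 0.45 without BaP replicate 3 (edgeR adjusted p 0.575). Ptprc, Grb2 and Dok3, the other most abundant genes of the list, were not called in these 3 comparisons. The list had 22 tested genes when BaP replicate 3 was left out, and 5, 6 and 5 calls at the 3 steps in turn, beside 12.4%, 35.7% and 18.0% of genes, and Ptprc was then lower in pre-basophils than in BM mature basophils and Dok3 lower in BaPs than in pre-basophils.

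**Figure D5:**
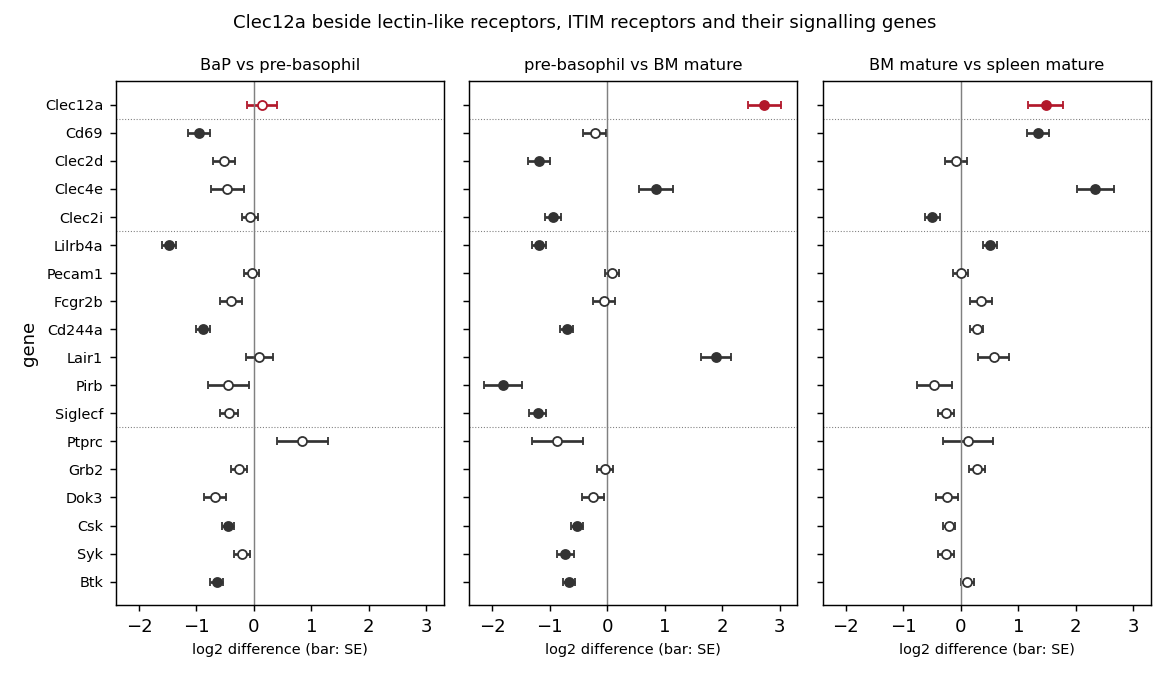
Log2 difference with SE (horizontal) in 3 neighbouring comparisons (panels) for Clec12a (red) and for lectin-like receptors, ITIM receptors and signalling genes (rows, separated by dotted lines). Filled points have an edgeR adjusted p under 0.05. Of the plotted genes, which leave out the sparsely counted Clec11a, Clec12a has the largest value in the middle panel (2.73) and Clec4e in the right panel (2.34).

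Clec12a lies in a cluster of lectin-like receptor genes on chromosome 6. Of 22 genes of the table within 300 kb, 13 were tested, and none of the 13 was called higher by edgeR in pre-basophils than in BM mature basophils, where 16.3% of genes were, nor by DESeq2 or limma-voom, and 1 (Gm44000) had an unadjusted p under 0.05. By edgeR 2 were called lower (Clec2d and 2310001H17Rik), with 27.2% called in either direction. The median of the 13 at that step was -1.20, against the 2.73 of Clec12a. Without BaP replicate 3, 1 was called higher (Gm44000) and 7 lower (Clec2d, 2310001H17Rik, Clec2e, Klrc2, Klrd1, Klre1 and Klrk1), beside 35.7% of genes. Between BaPs and pre-basophils 4 were then called lower in BaPs (2310001H17Rik, Cd69, Clec2d and Klrk1) and 0 higher, beside 12.4% of genes. Among the 4 most abundant neighbours, Cd69 (129267325 to 129275436) is described above, and Gabarapl1 (129533160 to 129542346), an autophagy gene, was not called at any of the 3 steps. The gene 2310001H17Rik (129208412 to 129238725) was lower in BaPs than in pre-basophils by 0.62 and in pre-basophils than in BM mature basophils by 0.67 (edgeR adjusted p 0.0102 and 0.00117), the first of which was 0.0507 without pre-basophil replicate 1. From BM to spleen mature basophils Cd69 and Olr1 were the 2 neighbours called, both higher in the BM like Clec12a, beside 4.67% of genes called in that direction.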

How the data were processed

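Clec12a was studied in 12 RNA-seq libraries of FACS-sorted mouse basophil-lineage cells, grouped by their labels into 4 groups of 3. The authors captured polyadenylated RNA on beads, amplified cDNA by the TAS-Seq workflow, sequenced fragmented libraries, trimmed reads with Cutadapt 3.4 and mapped them to reference transcripts with Bowtie2 2.4.2. The authors deposited 1 table of read counts per gene, whole numbers that were not normalized. The study's methods name GRCm38 as the reference and the submitters' processing notes name GRCm39, so coordinates are given from GENCODE M21 on GRCm38 and gene borders may differ from those counted. Strand use, reads matching several genes and molecular identifiers are not given in the sources used here. PCR copies therefore may count as separate reads, floors cover counting error only, and values of pseudogenes and of genes with near copies are uncertain.

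All genes were filtered (filterByExpr), scaled by TMM and fitted in 1 quasi-likelihood model of edgeR 4.0.16 (R 4.3.3) over all 12 libraries with a coefficient per group. A gene was called at a Benjamini-Hochberg adjusted p under 0.05 over 15083 genes. CPM use TMM-scaled totals, log2 CPM a prior count of 2, and SE and intervals are those of the model. The steps were tested on simulated data. The study's own package, TCC, was not used here. Its scheme (iterated TMM, likelihood ratio test) was approximated as an alternative, beside DESeq2 1.42.0, limma 3.58.1 (voom), other scalings, no filter, fits of the compared groups alone, a replicate block and leaving out each library. The list counts without BaP replicate 3 were added after seeing the data. The ratio to Cd9 was tested by exact permutation of libraries. Of the genes tested, 97.0% matched a GENCODE gene.

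Replicate numbers were checked for pairing. Deviations from the group means correlated at over 0.1 in all 9 same-numbered pairs among the BM groups (0.125 to 0.262) and in none of the 9 pairs with the spleen (0.000366 to 0.0899), so the numbers pair the BM libraries. This rests on the data, since no label names a shared batch. The 9 same-numbered values with the spleen were all above 0, whereas spleen pairs of other numbers ran from -0.0716 to 0.0127. A weaker pairing with the spleen was not tested. Libraries of the same group differed by more than sampling noise (chi-square per degree of freedom of 4.16 to 35.0).

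Members and gene lists were chosen with earlier results of these data known. Genes named were Clec12a, the 6 sort genes, the 6 and 4 genes by likeness, the 4 most abundant of each list and the 3 genes of each list with the largest change from pre-basophil to BM mature, out of the called genes whose higher group had a mean of 10 CPM or more, and 4 neighbours. Members behind counts of 5 or fewer, Ptpn6, Plcg2 and the neutrophil and monocyte markers were named after their values were seen. Clec12b and Clec4f were not analysed here.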

Additional observations from a re-analysis of the deposited data

How the results depend on the processing

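The calls of Clec12a between pre-basophils and BM mature basophils, BaPs and either mature group, pre-basophils and spleen, the sorted gates, the 4 groups, the ratio to Cd9 and the difference of the first pair of steps were kept under every alternative run. With the replicate number as a block no call of Clec12a changed; the blocked log2 differences were 0.05 for BaP against pre-basophil, 2.75 for pre-basophil against BM mature and 1.48 for BM against spleen mature. BaP against pre-basophil changed sign without BaP replicate 1 or 2 (-0.058 and -0.069) and was called without replicate 3, with a range of -0.069 to 0.47 over libraries left out. BM against spleen mature lost its call without BM mature replicate 1 or spleen mature replicate 3, with a range of 1.36 to 1.61. The step difference that was not called (pre-basophil to BM mature against BM mature to spleen) was called when only library size was used for scaling (1.60, adjusted p 0.0396 in edgeR) or when no low count filter was applied (1.28, adjusted p 0.000582 in edgeR), and ranged from 1.05 to 1.40 over libraries left out. The cause was not tested. The number of genes called between BaPs and pre-basophils was 1069, and 1608 under library size alone, 2091 without the filter, 375 from those 6 libraries alone, 1830 without BaP replicate 3 and, with pre-basophil replicate 1, 2 or 3 left out, 471, 390 or 382, and between BM and spleen mature it was 1181, 1796 without the filter, 2340 from those 6 libraries alone, 2653 without BaP replicate 3, 245, 459 and 448 without BM mature replicates 1, 2 and 3 and 757, 544 and 241 without spleen mature replicates 1, 2 and 3. Of 915 alternatives of 46 called values of listed genes, 770 kept the call and 145 lost it. Of the 6 genes most like Clec12a, 4 were shared under library size alone.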
